A study of Arabidopsis thaliana with 4 samples.

Results

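The 42 genes described here make up the circadian clock of Arabidopsis thaliana and its nearest outputs. They were chosen by locus from knowledge of the clock, as dawn, day and evening clock genes, the REVEILLE, LNK and CDF families and 4 output genes, and all 42 were found among the 34133 loci of the deposited tables. Earlier results of these data were known at the time of the choice. Shares of members set beside those of all loci below are therefore descriptions, and the members were not tested as a set. RNA came from the first leaf of plants grown for 14 days on Murashige and Skoog medium with 1% sucrose. Plants were of the accession Ak-1, an inbred line, or of the hybrid Col-0xAk-1, a cross with the reference accession Col-0, with 2 libraries each, in a study of the larger biomass of hybrids. The inbred line is Ak-1 by its titles and strain labels, Aa-0 by its genotype labels and Ak-0 in the design text, and the titles were followed. No Col-0 library was analysed here, and the processing notes name a Col-0 genome (TAIR10), so that a diverged Ak-1 gene can be listed too low. The labels do not say whether replicates were separate plants or pools, so the spread behind each p-value is that of these libraries and may be technical. They also give neither the time of day of sampling nor the light regime, and both set the level of most of these genes, so that sampling time and genotype cannot be told apart.

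The plant clock is a loop of repressors that follow each other through the day. The MYB factors CCA1 and LHY are made around dawn and repress genes of the evening. Pseudo-response regulators follow in a wave, PRR9 early, then PRR7, PRR5 and last TOC1, and repress CCA1 and LHY in turn. The evening complex of ELF3, ELF4 and LUX represses PRR9 and PRR7 at night. The REVEILLE factors RVE4 and RVE8, with their LNK partners, activate afternoon and evening genes. CCA1 and its relatives bind the evening element in the promoters of evening genes, while G-boxes are bound by light-signalling and other bZIP and bHLH factors. In leaves the clock times photosynthesis, starch use and growth.

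Short words known from clock gene promoters are shown here because the members were also described by time of day, and the counts below were not tested. The 300 bases before each annotated gene start were read from the RefSeq genome of Arabidopsis, build TAIR10.1, by the RefSeq annotation of that build, and searched on both strands. The evening element (AAAATATCT) was present in 8 of the 13 members that textbooks place in the evening, in 1 of the 16 placed in the morning, and in 2.79% of 27443 protein-coding genes. The G-box (CACGTG) was present in 7 of the 16 morning members, in 2 of the 13 evening members, and in 7.09% of all. With the unplaced RVE3, RVE5, PRR7 and TIC it was in 13 of the 42 members. The CCA1-binding site (AAAAATCT) was in 6 of the 42 members against 7.94% of all, and the LUX-binding site (GATACG or GATTCG) in 8 of 42 against 14.3%. Matches of different motifs did not overlap in the members' windows. A match is a description of these letters and no proof of binding.

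The evening elements of the members are given below with their flanks, 5′ to 3′ on the strand of the gene, with the element in capitals, which reads AGATATTTT where it lies on the other strand.
RVE7: taatcacaaaAAAATATCTtcttcataat
TOC1: aaatatcatgAGATATTTTctccaagatg
PRR5, distal: attctactAGATATTTTttcaaatcca
PRR5, proximal: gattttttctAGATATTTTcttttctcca
LUX: tagaagatctAAAATATCTagctaactcg
BOA: tgcgggtaaaAGATATTTTagattatcta
FKF1: tgagtaggctAGATATTTTctcggaatat
GRP7, distal: ttgacatatgAGATATTTTtttgctccac
GRP7, middle: tgctccactgAGATATTTTtctttgtccc
GRP7, proximal: gtcccaagatAAAATATCTtttctcgcat
GRP8: attcttacaaAGATATTTTttg
COR27, distal: ggacggtggaAGATATTTTgcagttgaag
COR27, proximal: gcagttgaagAAAATATCTttgatatttt
Among these genes only RVE7 was placed in the morning.

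G-boxes of 4 morning genes are given in the same way, with the word in capitals. Those of the morning genes RVE2, LNK3 and CDF2 are not shown.
CCA1: gtgtatcagaCACGTGtcgacaaact
LHY: acaatatcacCACGTGtcgatctgcg
RVE1: gaaagagcgaCACGTGgcaaagatgg
PRR9, distal: aatagaaaccCACGTGtcatccacat
PRR9, proximal: aggttaatgaCACGTGttaaggtgga
The whole windows follow for RVE7, the called gene, at chr1:6308244-6308543, and for LHY, a dawn gene that differed strongly between the hybrid libraries, at chr1:37872-38171. Both lie on the minus strand, and capitals mark the evening element and the G-box.
RVE7: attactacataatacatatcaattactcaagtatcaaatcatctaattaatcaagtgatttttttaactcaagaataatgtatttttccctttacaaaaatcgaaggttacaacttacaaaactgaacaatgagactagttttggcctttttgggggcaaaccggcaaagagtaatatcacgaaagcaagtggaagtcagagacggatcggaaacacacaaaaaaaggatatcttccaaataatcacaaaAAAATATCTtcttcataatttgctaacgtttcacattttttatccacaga
LHY: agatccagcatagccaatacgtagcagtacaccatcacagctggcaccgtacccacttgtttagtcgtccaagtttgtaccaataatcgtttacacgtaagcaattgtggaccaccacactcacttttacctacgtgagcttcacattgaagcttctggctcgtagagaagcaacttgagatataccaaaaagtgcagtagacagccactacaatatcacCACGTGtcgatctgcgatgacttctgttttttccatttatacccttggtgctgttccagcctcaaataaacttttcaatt

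**Figure D1:**
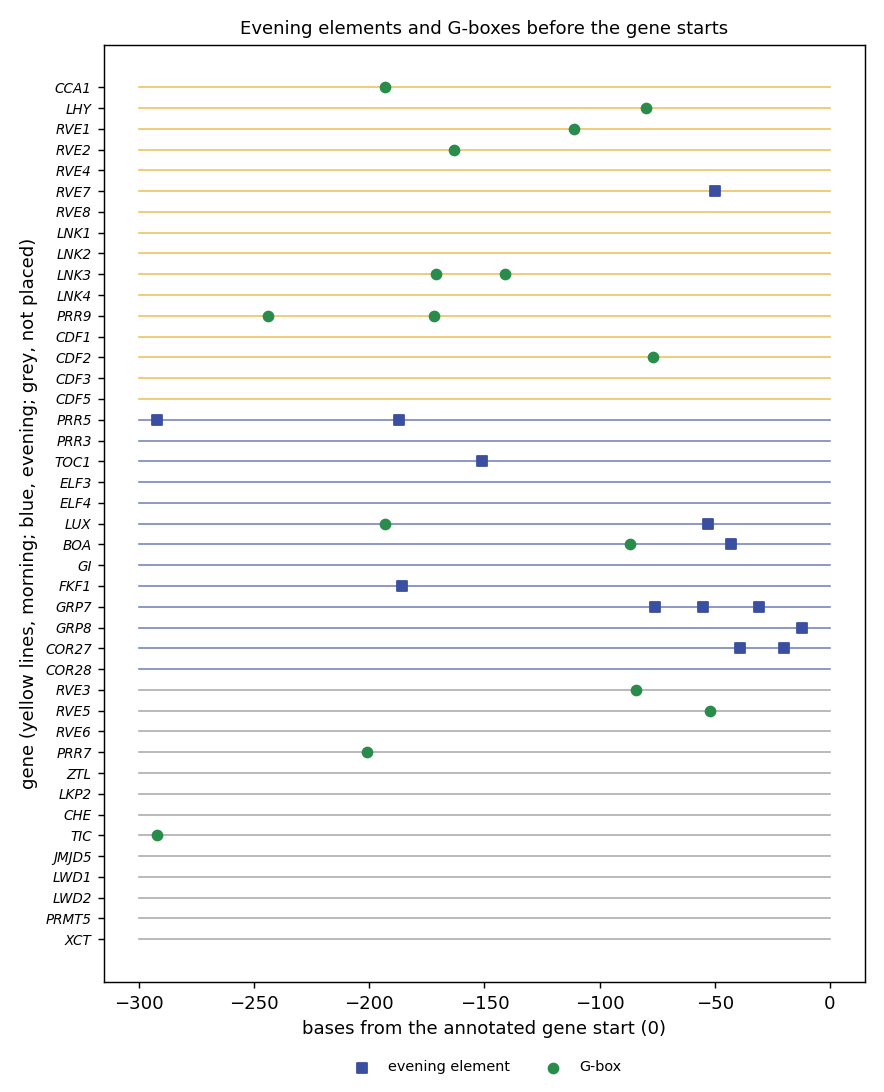
Position of evening elements (squares) and G-boxes (circles) in the 300 bases before the annotated start of each of the 42 genes, in bases from that start, with yellow lines for morning, blue for evening and grey for unplaced genes. Evening elements lie on 8 of the 13 evening lines and on 1 of the 16 morning lines. G-boxes lie on 7 morning and 2 evening lines and on the grey lines of RVE3, RVE5, PRR7 and TIC.

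FPKM, fragment numbers scaled by transcript length and library size, are the authors' own values, so levels can be compared between genes per length. An exact 0 can be a failed estimate. The hybrid libraries were less alike (Pearson r = 0.968 across loci) than the Ak-1 libraries (0.990), and hybrid replicate 2 stood apart in many of these genes, as described below. Total depth is unknown, and the steps between low values gave depths of 1.13, 1.35 and 1.17 for Ak-1 replicate 2 and hybrid replicates 1 and 2, relative to 1 for Ak-1 replicate 1. All 7 leaf markers were above 1 FPKM in at least 1 library, although RBCS1A, for a Rubisco subunit, was listed at 0 in both hybrid libraries. The 8 root markers summed to at most 0.32 FPKM in any library and the 5 shoot apex markers to at most 0.20, with WUS and CLV3 at 0. The 6 flower markers summed to 2.59 and 2.21 FPKM for Ak-1 and 0.97 and 0.95 for the hybrid, mostly SEP3. In bulk leaf RNA, fewer cells that express a gene and less RNA per cell cannot be told apart.

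Most morning genes were high and most evening genes low in every library. The median of the 16 morning members was 43.1 and 42.6 FPKM for Ak-1, 58.5 for hybrid replicate 1 and 82.9 for hybrid replicate 2. That of the 13 evening members was 0.30 and 0.82 FPKM for Ak-1 and 0.19 and 0.35 for the hybrid. Of all 42 members 21 were above 10 FPKM in each library, among them 14 of the 16 morning genes (all but RVE2 and CDF5) and 1 of the 13 evening genes, GRP8. A total of 8 members were under 1 FPKM in every library, and 7 of these are evening genes. The highest single level was that of LNK2 in hybrid replicate 2, at 402 FPKM.

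**Figure D2:**
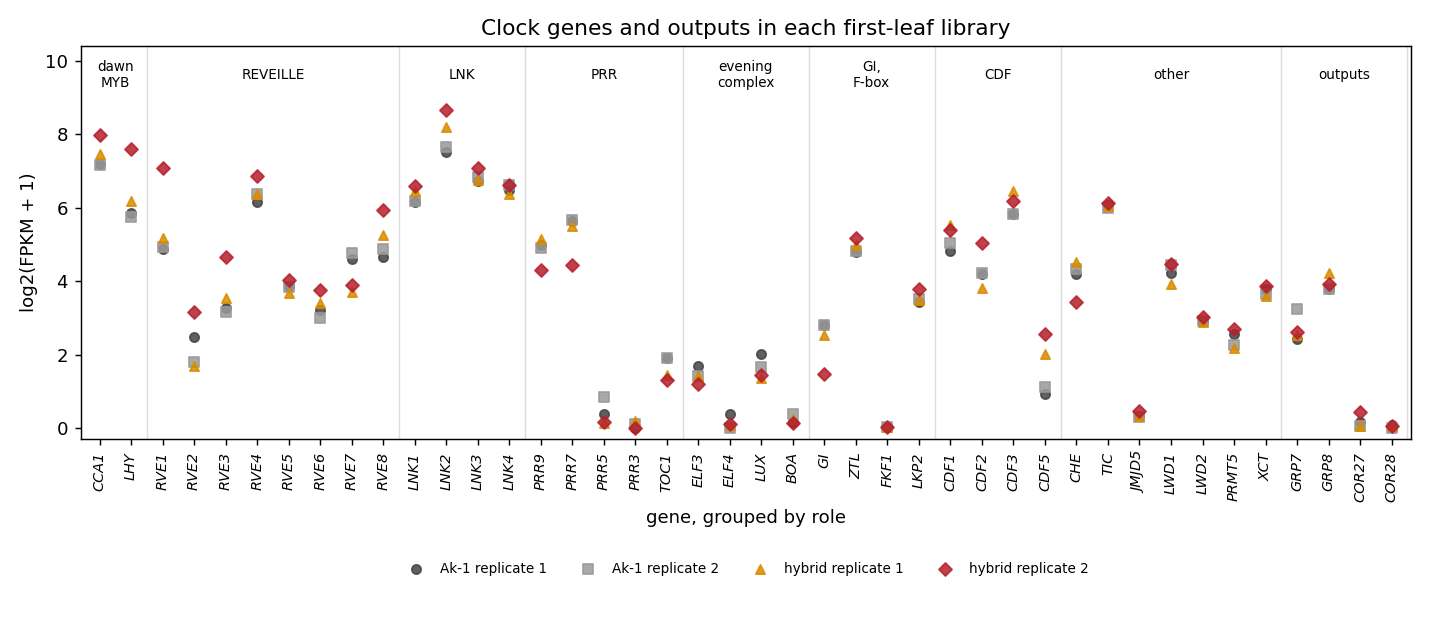
Level of each of the 42 genes as log2(FPKM + 1), with 1 symbol per library, grouped by role. Dawn MYB and LNK genes lie between 53.1 and 402 FPKM, while PRR5, PRR3, ELF4, BOA, FKF1, JMJD5, COR27 and COR28 lie under 1 FPKM in all 4 libraries.

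Between hybrid and Ak-1, 1 of the 34 members that could be tested fell, RVE7, and none rose. The 34 are those with a mean of at least 1 FPKM, and the remaining 8 were too low. The test was limma on log2(FPKM + 1) over 15905 loci with Benjamini-Hochberg adjustment, and a gene was called at an adjusted p under 0.05. Over all tested loci 1.62% were called higher and 2.51% lower, so that 0 and 1 of 34 members lie near the background. At an unadjusted p under 0.05, 6 members were higher (17.6%, against 7.61% of all loci), namely RVE6, RVE8, LNK2, CDF1, CDF3 and CDF5, and 2 lower (5.88%, against 12.6%), RVE7 and TOC1. Both hybrid libraries lay above both Ak-1 libraries for 14 tested members (41.2%, against 20.5% of all tested loci) and below for 5 (14.7%, against 32.6%). The median log2 difference of the 34 members was 0.16, and that of all tested loci −0.06. The members' median was 0.03 without hybrid replicate 2 and 0.29 without hybrid replicate 1. An exact permutation test of 2 against 2 libraries cannot go below p = 0.333 (two-sided), so none is given for single genes. The 95% confidence intervals below are limma's for each gene, without adjustment for the number of genes.

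**Figure D3:**
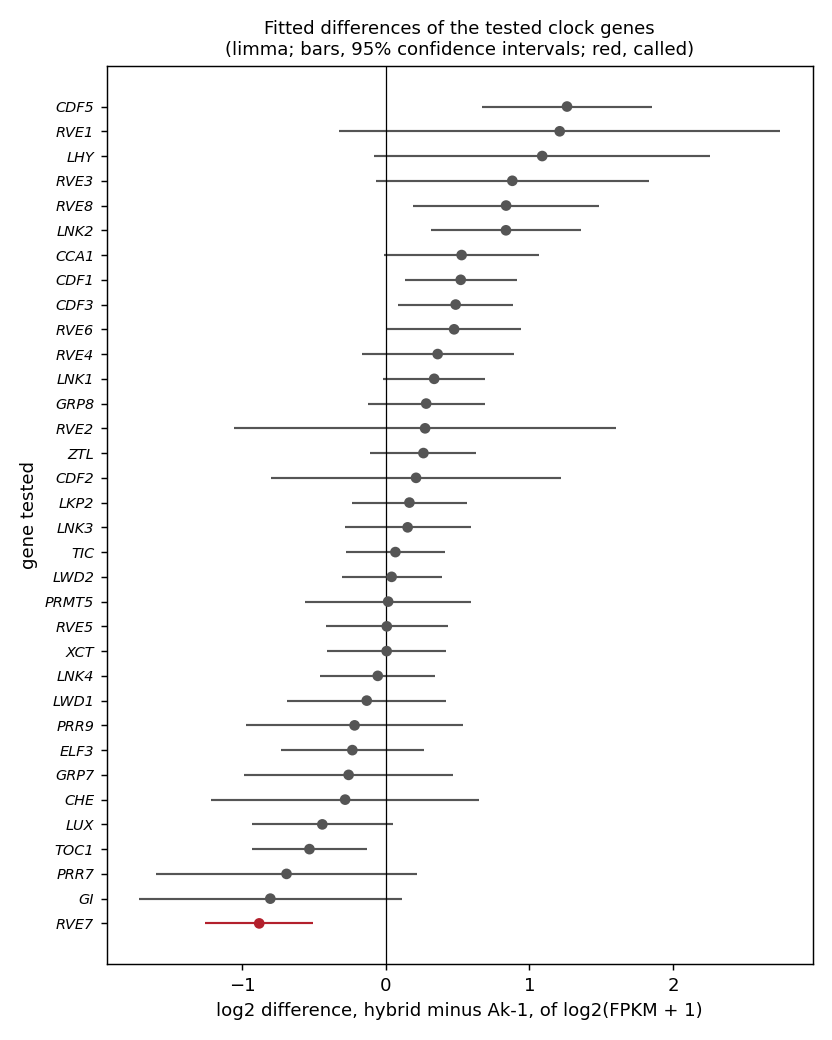
Fitted log2 difference, hybrid minus Ak-1, of the 34 tested genes with 95% confidence intervals (limma, 2 libraries per group), ordered by size, with the called gene in red. RVE7 is lowest at −0.88, and the interval is widest for RVE1, from −0.33 to 2.75.

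CCA1 (AT2G46830) and LHY (AT1G01060), the dawn repressors, were abundant in all libraries. CCA1 had 146 and 143 FPKM in Ak-1, while the hybrid pair had 174 and 251. LHY had 57.2 and 53.1 FPKM for Ak-1, with the hybrid at 72.1 and 194. For both genes the groups did not overlap, hybrid replicate 1 stood just above Ak-1 and hybrid replicate 2 far above it. Neither was called (log2 difference 0.53, interval −0.01 to 1.07, for CCA1 and 1.09, interval −0.08 to 2.26, for LHY, with limma adjusted p of 0.253 and 0.275). The level of LHY was 0.392 and 0.370 times that of CCA1 in the Ak-1 libraries, 0.414 times for hybrid replicate 1 and 0.773 times for hybrid replicate 2.

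RVE7 (AT1G18330), a phytochrome-responsive REVEILLE factor also known as EPR1, had 23.4 and 26.1 FPKM in Ak-1 against 12.1 and 13.9 in the hybrid. Both hybrid libraries lay well below both Ak-1 libraries and close to each other. The mean fell to 13.0 ± 1.27 FPKM in the hybrid, against 24.7 ± 1.88 in Ak-1 (± SD, n = 2 libraries each), with a log2 difference of −0.88 (SE 0.15, limma adjusted p = 0.0438). The call sits just under the threshold, and it held with a pseudocount of 0.1. Its adjusted p was 0.0504 with no mean-variance trend, 0.0571 after median-of-ratios scaling, 0.0537 after quantile normalization, 0.0572 after rescaling nuclear loci to TPM, 0.0530 among loci averaging 5 FPKM or more, 0.0754 with no filter and 0.0728 with the replicate block. The call was also lost with any single library left out. In such a fit the residual spread comes only from the group with 2 libraries, so this loss cannot be read as particular to RVE7. The log2 difference of RVE7 was −0.95 and −0.81 without Ak-1 replicate 1 or 2 and −0.79 and −0.97 without hybrid replicate 1 or 2. Its log2 difference stayed between −0.97 and −0.79 in these settings.

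Of the other 7 REVEILLE genes none was called, and all had a positive log2 difference, which turned negative for RVE5 after rescaling to TPM and for RVE2 and RVE5 without hybrid replicate 2 or without Ak-1 replicate 2. RVE8 (AT3G09600), an activator of evening genes that works through the LNK proteins, had 24.3 and 28.2 FPKM in Ak-1, while the hybrid pair had 37.4 and 60.4 (log2 difference 0.84, interval 0.19 to 1.49, limma adjusted p = 0.163). RVE4 (AT5G02840) and RVE6 (AT5G52660) act in part alongside RVE8. RVE4 had 69.7 and 81.4 FPKM for Ak-1, with the hybrid at 82.4 and 114. RVE6 had 8.25 and 6.97 against 9.54 and 12.5 FPKM (limma adjusted p = 0.238). In all 3 genes both hybrid libraries lay above both Ak-1 libraries, narrowly so in replicate 1 of RVE4. RVE3 (AT1G01520, ASG4 in RefSeq) had 8.59 and 8.02 FPKM in Ak-1 against 10.6 and 24.3 in the hybrid. RVE5 (AT4G01280), which shares 23.5% of its length with AT4G01290 on the opposite strand, itself at 22.7 to 31.8 FPKM, had 13.6 and 13.4 against 11.9 and 15.4 FPKM, and its groups overlapped. RVE1 (AT5G17300), which links the clock to auxin synthesis, had 28.5 and 29.7 FPKM in Ak-1 against 35.1 and 134 in the hybrid. RVE2 (AT5G37260), also known as CIR1, had 4.63 and 2.51 against 2.23 and 7.95 FPKM, so that the hybrid libraries enclosed those of Ak-1. The hybrid pair of both genes was far apart, and their intervals were wide, from −0.33 to 2.75 for RVE1 and from −1.05 to 1.60 for RVE2.

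The LNK genes encode partners of RVE4 and RVE8 that are made in the morning, and all 4 were above 70 FPKM in each library. LNK2 (AT3G54500) had 181 and 201 FPKM in Ak-1 against 290 and 402 in the hybrid, with all hybrid values above all Ak-1 values. Its log2 difference was 0.84 (interval 0.32 to 1.36, limma adjusted p = 0.108), and it was not called. LNK1 (AT5G64170) had 70.4 and 72.0 FPKM in Ak-1 against 86.0 and 94.7 in the hybrid (adjusted p = 0.264), again without overlap. LNK3 (AT3G12320) had 104 and 113 against 107 and 135 FPKM, and LNK4 (AT5G06980) had 89.1 and 96.4 against 81.6 and 97.5 FPKM. The groups of these last genes overlapped, with intervals of −0.28 to 0.59 and −0.46 to 0.35.

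Of the pseudo-response regulators the early PRR9 and PRR7 stood above the later TOC1, PRR5 and PRR3 in every library. PRR9 (AT2G46790), the earliest, had 30.6 and 28.9 FPKM in Ak-1, while the hybrid pair had 34.7 and 18.6. PRR7 (AT5G02810), which follows it, had 49.2 and 49.9 FPKM for Ak-1, with the hybrid at 44.5 and 20.6. In both genes hybrid replicate 1 lay near Ak-1 while hybrid replicate 2 was lower. The later TOC1 (AT5G61380), which represses CCA1 and LHY, had 2.79 and 2.80 FPKM in Ak-1 against 1.75 and 1.51 in the hybrid, with close pairs and no overlap. Its log2 difference was −0.53 (interval −0.93 to −0.13, limma adjusted p = 0.155), smaller than the fold of the FPKM because of the added 1. PRR5 (AT5G24470), of the afternoon, had 0.30 and 0.82 FPKM in Ak-1, while the hybrid pair had 0.10 and 0.12, and PRR3 (AT5G60100), which protects TOC1 from degradation, was listed between 0 and 0.15 FPKM. PRR5 and PRR3 were too low to test. The 3 tested regulators all had a negative log2 difference, with that of PRR9 positive without hybrid replicate 2, and none was called (adjusted p of 0.155 to 0.746).

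No gene of the evening complex exceeded 3.08 FPKM in any library, and none was called. ELF3 (AT2G25930), the scaffold of the complex, had 2.22 and 1.66 FPKM for Ak-1, with the hybrid at 1.70 and 1.3. LUX (AT3G46640), its DNA-binding subunit, had 3.08 and 2.18 against 1.56 and 1.75 FPKM (log2 difference −0.44, interval −0.93 to 0.05, limma adjusted p = 0.288). Only LUX had groups without overlap, and 38.5% of its length is shared with AT3G46650 on the opposite strand, at 0.42 to 1.31 FPKM, whose reads cannot be told apart there. ELF4 (AT2G40080), the third subunit, was listed at 0.30 and 0 FPKM in Ak-1 and at 0.07 and 0.08 in the hybrid. BOA (AT5G59570), a close relative of LUX, had 0.13 and 0.30 against 0.19 and 0.11 FPKM, and AT5G59580 lies opposite 47.9% of it.

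GI (AT1G22770), an evening protein that stabilises the photoreceptor ZTL, had 6.08 and 5.98 FPKM in Ak-1 against 4.84 and 1.78 in the hybrid. All hybrid values were lower, at 0.803 times the Ak-1 mean in replicate 1 and 0.295 times in replicate 2, and the gene was not called (log2 difference −0.80, interval −1.72 to 0.11, limma adjusted p = 0.298). ZTL (AT5G57360), an F-box protein that marks TOC1 and PRR5 for degradation and whose RNA is nearly constant through the day, had 26.9 and 27.6 FPKM in Ak-1, while the hybrid pair had 30.5 and 35.5. Its relative LKP2 (AT2G18915) had 9.84 and 10.5 against 10.3 and 12.8 FPKM, with the non-coding RNA AT2G18917 opposite 12.4% of it. FKF1 (AT1G68050), which degrades CDF proteins in the afternoon, was listed at 0.03 FPKM in both Ak-1 and at 0.02 in both hybrid libraries. The log2 differences of ZTL and LKP2 had intervals of −0.11 to 0.63 and −0.23 to 0.56.

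The CDF genes encode Dof factors that repress flowering genes in the morning, and each of the 4 had a positive log2 difference, that of CDF2 turning negative without hybrid replicate 2, with none called. CDF5 (AT1G69570) had 0.90 and 1.18 FPKM for Ak-1, with the hybrid at 3.06 and 4.87, 3.81 times the Ak-1 mean. Its log2 difference of 1.26 (SE 0.23, limma adjusted p = 0.0565) just missed the threshold, and it passed after quantile normalization, at 1.35 with adjusted p = 0.0447. Over 56.7% of its length lies the long non-coding RNA AT1G69572, transcribed from the opposite strand. AT1G69572 had 5.59 FPKM in both Ak-1 libraries and 1.97 and 2.46 in the hybrid and was called lower (log2 difference −1.04, limma adjusted p = 0.0332). The library kit does not mark strand, so reads of this pair cannot be told apart where they overlap, and both values are uncertain. CDF1 (AT5G62430) had 27.2 and 32.1 FPKM in Ak-1 against 44.8 and 41.0 in the hybrid (log2 difference 0.52, interval 0.13 to 0.91, adjusted p = 0.151). CDF3 (AT3G47500) had 55.7 and 55.9 against 86.8 and 71.1 FPKM (0.49, interval 0.08 to 0.89, adjusted p = 0.182). In CDF1 and CDF3 the groups were apart and hybrid replicate 1 was the higher of the hybrid pair. CDF2 (AT5G39660) had 17.3 and 17.8 FPKM in Ak-1, and its hybrid libraries lay on either side at 13.1 and 31.6.

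Of the other regulators, 6 were tested, and in each the hybrid and Ak-1 libraries overlapped. TIC (AT3G22380), a nuclear regulator needed for LHY expression, had 66.0 and 62.3 FPKM in Ak-1, while the hybrid pair had 65.6 and 68.9. LWD1 (AT1G12910) and LWD2 (AT3G26640), WD-repeat proteins that help activate CCA1, had 17.7 and 20.7 against 14.3 and 21.0 FPKM and 6.59 and 6.53 against 6.4 and 7.18 FPKM. LWD2 shares 13 bases (0.8% of its length) with the leaf marker GAPA (AT3G26650) on the same strand, at 1768 to 2333 FPKM. Whether reads of GAPA were counted for LWD2 was not tested. PRMT5 (AT4G31120), a methyltransferase that acts on clock gene splicing, had 4.94 and 3.82 against 3.54 and 5.46 FPKM, and XCT (AT2G21150), a nuclear protein that sets clock period, had 12.9 and 11.5 against 11.01 and 13.7 FPKM. The intervals of these 5 genes ran from −0.69 (LWD1) to 0.60 (PRMT5). CHE (AT5G08330), a TCP factor that represses CCA1, had 17.3 and 19.0 FPKM in Ak-1, with hybrid libraries on either side at 22.0 and 9.77. JMJD5 (AT3G20810), a histone demethylase, had 0.24 to 0.39 FPKM and was too low to test.

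The evening outputs did not exceed 17.8 FPKM in any library. GRP7 (AT2G21660), an RNA-binding protein that limits its own RNA, had 4.40 and 8.49 FPKM for Ak-1, with the hybrid at 4.79 and 5.19. Its close relative GRP8 (AT4G39260) had 12.8 and 12.9 against 17.8 and 14.1 FPKM. GRP7 varied more between the Ak-1 libraries than between the hybrid libraries, and GRP8 was higher in both hybrid libraries without being called (log2 difference 0.28, interval −0.13 to 0.69, limma adjusted p = 0.402). As related genes they may share reads, and no source used here says how those were assigned. COR27 (AT5G42900) and COR28 (AT4G33980), cold-regulated repressors of evening genes, were listed at no more than 0.35 and 0.06 FPKM in any library and were not tested.

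The hybrid libraries differed from each other in many of these genes. Hybrid replicate 2 was above hybrid replicate 1 for 25 of the 34 tested members (73.5%, against 55.9% of all tested loci), among them 13 of 16 morning genes, all 8 REVEILLE genes and all 4 LNK genes. On log2(FPKM + 1), 5 members were over 2 times higher in replicate 2 than in replicate 1 (14.7%, against 2.7% of all loci), namely RVE1, RVE2, LHY, CDF2 and RVE3. Another 3, namely GI, PRR7 and CHE, were over 2 times lower (8.82%, against 1.31%). Between the Ak-1 libraries no tested member differed by more than 2 times on log2(FPKM + 1), against 0.314% of all tested loci. With 1 library on each side these differences have no replicate check. The leaf markers summed to 52402 FPKM for hybrid replicate 1, 42206 for hybrid replicate 2, and 58297 and 61486 for Ak-1. Without RBCS1A, listed at 0 in the hybrid, the other 6 summed to 38245 and 40589 FPKM for Ak-1, below both hybrid libraries. The part of these markers in the clock gene differences was not tested.

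Against the Ak-1 mean, RVE1 stood at 1.21 times with hybrid replicate 1 and 4.59 times with hybrid replicate 2, and LHY at 1.31 and 3.52 times. PRR7 stood at 0.897 and 0.416 times. The ratio of LHY to GI was 9.41 and 8.87 in the Ak-1 libraries, 14.9 for hybrid replicate 1 and 109 for hybrid replicate 2. Of the gene ratios computed it differed most between the hybrid libraries. That of CCA1 to TOC1 differed least, at 52.3 and 51.2 for Ak-1, 99.6 for hybrid replicate 1 and 166 for hybrid replicate 2. CCA1, LHY and RVE1 had their highest and PRR9, PRR7 and GI their lowest level of the 4 libraries in hybrid replicate 2. The 5 tested members with both hybrid libraries below both of Ak-1 (14.7%, against 32.6% of all tested loci) were RVE7, TOC1, LUX, PRR7 and GI. The median log2 difference from Ak-1 of the 16 morning members, all tested, was 0.26 for hybrid replicate 1 and 0.69 for hybrid replicate 2. That of the evening members was −0.29 and −0.37, over only the 6 of 13 that were tested. Over all tested loci these medians were −0.08 and −0.03.

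**Figure D4:**
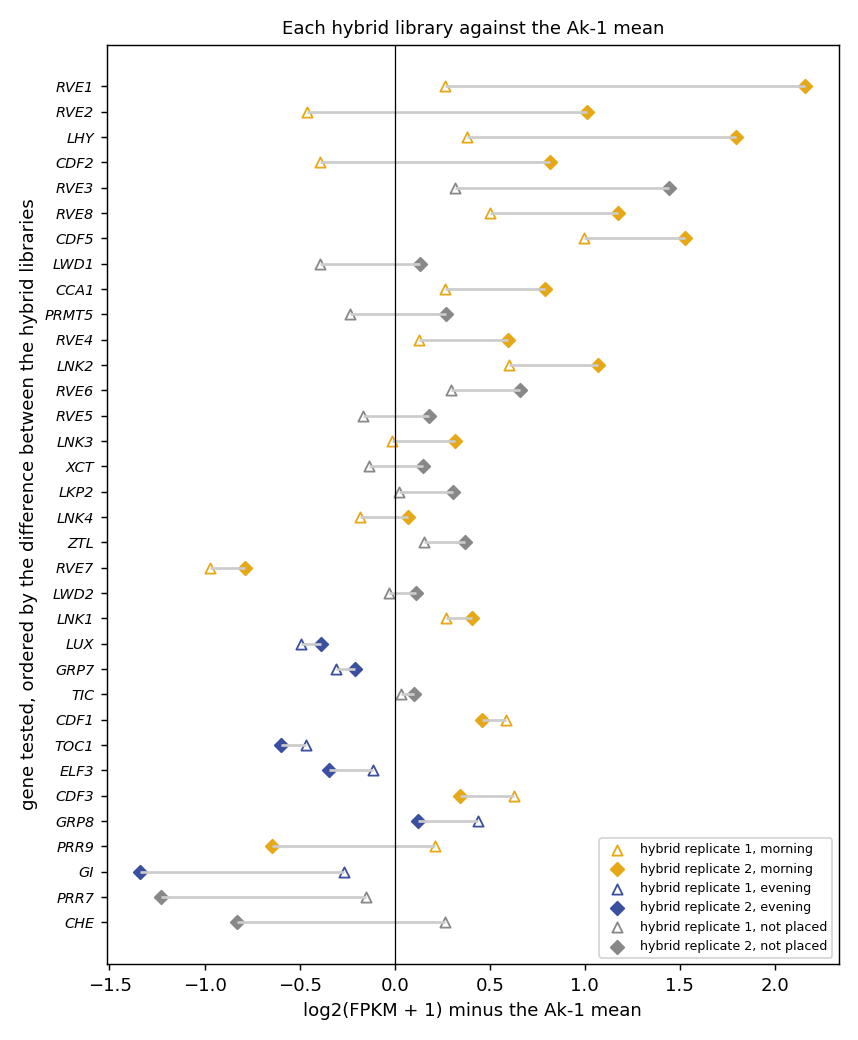
Level of each tested gene in hybrid replicate 1 (triangles) and hybrid replicate 2 (diamonds) as the difference from the Ak-1 mean on log2(FPKM + 1), coloured by textbook phase and ordered by the gap between the hybrid libraries. RVE1, LHY and RVE3 reach 2.16, 1.80 and 1.45 in replicate 2 only, and GI and PRR7 fall to −1.34 and −1.23, while RVE7 is low in both.

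The fit depended on which hybrid library was left out. Without hybrid replicate 1, when the single hybrid library is assumed to vary like the Ak-1 pair, 8 members were called higher (23.5%, against 3.88% of loci), namely CCA1, LHY, RVE1, RVE3, RVE8, LNK2, CDF2 and CDF5. In the same fit 3 were called lower (8.82%, against 5.64%), namely PRR7, GI and CHE. RVE1 had a log2 difference of 2.16 there (limma adjusted p = 0.0103) and LHY of 1.80 (0.0138). Without hybrid replicate 2 the log2 differences of the dawn genes CCA1 and LHY were 0.27 and 0.38, and those of RVE1, RVE3 and RVE8 were 0.26, 0.32 and 0.50. LNK2 and CDF5 stood at 0.60 and 1.00, and PRR7 and GI at −0.15 and −0.27. CDF2 and CHE changed sign, to −0.39 and 0.27, while the other members called without hybrid replicate 1 kept theirs. Those calls rest on hybrid replicate 2 as the only hybrid library and cannot be told apart from that library.

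Of 26 other genes of light input and clock function, 25 were tested, 1 rose, none fell and 24 were not called. Over all tested loci 1.62% were called higher and 2.51% lower. PHYD, for a phytochrome related to PHYB, had 0.21 and 0.19 FPKM in Ak-1 against 1.67 and 2.59 in the hybrid (log2 difference 1.37, SE 0.22, limma adjusted p = 0.0401). PHYD passed the filter on low values only through the hybrid (means of 0.20 and 2.13 FPKM), so the call depends on that filter. It was lost with no filter (limma adjusted p = 0.0610), with the replicate block (0.0703) and without Ak-1 replicate 1 or 2. In the fits without an Ak-1 library the residual spread is that of the hybrid pair alone, and the log2 difference of PHYD was 1.379 and 1.355. Without either hybrid library its mean was under 1 FPKM and it was not tested, and the limit given above for diverged Ak-1 genes holds for it. The median log2 difference of the 25 was −0.05. Between the hybrid libraries 1 of these 25 genes, GBSS1, was over 2 times higher in replicate 2 and 1, CAT3, over 2 times lower, and 14 of 25 were higher in replicate 2. Over all tested loci these shares were 2.7%, 1.31% and 55.9%. GBSS1 and CAT3 are named after their values were seen. GBSS1, the starch synthase gene that CCA1 and LHY activate, had 96.6 and 89.1 FPKM in Ak-1, while the hybrid pair had 124 and 304. CAT3, a catalase gene of the evening, had 229 and 249 FPKM for Ak-1, with the hybrid at 210 and 97.1. Neither was called.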

How the data were processed

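The authors deposited 1 FPKM value per locus and library, rounded to 2 decimals, for 34133 loci. Per the labels' protocols, libraries were made from total RNA of leaves with an Illumina TruSeq RNA kit, which does not mark strand. Per the submitters' processing notes the tools were TopHat and TopHat2 (version 2.0.8b), edgeR (version 3.12.0) and Cufflinks (version 2.0.2), with the build TAIR10, without the role of each. Values were not rescaled. Loci averaging 1 FPKM or more over the libraries, 15905 in all, entered a limma fit (limma 3.58.1, R 4.3.3) of log2(FPKM + 1) (mean-variance trend, no covariate, 2 residual and 3.18 prior degrees of freedom), hybrid minus Ak-1, two-sided, with Benjamini-Hochberg adjustment over all of them. The added 1 shrinks fold changes of low genes. Alternatives changed the pseudocount, filter, scaling, trend, replicate block and libraries used. The fit was tested on simulated data with noise set by expression level and alike in all libraries. It recovered 66 of 67 changes of 1 on log2 and called 7 of 15705 unchanged loci. A hybrid library unlike its partner was not simulated, so these rates do not hold for genes that differed between the hybrid libraries. RefSeq names and sequences are of TAIR10.1 and were matched by locus. Names RVE5, RVE6, CDF5 and COR28 are in common use for loci that RefSeq lists without that symbol. Members and lists were chosen with earlier results of these data known. The named-gene rule accounts for every member, with statistics for called members and for those with the smallest adjusted p of each role.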

Additional observations from a re-analysis of the deposited data

How the results depend on the processing

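The count of 1 member called lower (RVE7) became 0 with no filter on low values, with a mean of at least 5 FPKM, with median-of-ratios scaling, with quantile normalization, after rescaling nuclear loci to TPM and with no mean-variance trend, and remained 1 with a pseudocount of 0.1. With the replicate block it was also 0, and with the numbers crossed, a setting added after seeing the data, it was 0 again. No member was called higher with either block. Replicate numbers only share a label, as no source ties them, and the correlation across tested loci of replicate 2 minus replicate 1 in Ak-1 with the same in the hybrid was −0.138. The count called higher, 0, became 1 with quantile normalization (CDF5). Leaving out single libraries gave 0 to 8 members called higher, 0 to 3 called lower, and 0 to 2 other clock-pathway genes called. With a single library left out, the residual spread comes only from the group with 2 libraries. The number of calls over all tested loci changed in these fits too. The range of the counts alone therefore cannot be read as particular to the clock genes. The count of other genes called, 1, became 0 with no filter, with a mean of at least 5 FPKM and with the replicate block. The median log2 difference of the tested members, 0.16, was 0.03 without hybrid replicate 2 and 0.29 without hybrid replicate 1.

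Signs turned in 12 members, none of them called with all 4 libraries, although CDF2 and CHE were called without hybrid replicate 1. Log2 differences with a single library left out ranged from −0.39 to 0.82 in CDF2, −0.83 to 0.27 in CHE, −0.66 to 0.15 in GRP7, −0.01277 to 0.32 in LNK3, −0.18 to 0.07189 in LNK4, −0.39 to 0.13 in LWD1, −0.03085 to 0.11 in LWD2, −0.24 to 0.27 in PRMT5, −0.65 to 0.21 in PRR9, −0.46 to 1.01 in RVE2, −0.16 to 0.18 in RVE5 and −0.14 to 0.15 in XCT. LNK4 was 0.009458 with median-of-ratios scaling, and RVE5 and XCT were −0.003831 and −0.004935 after rescaling to TPM. The cause of these changes was not tested. With 2 libraries a group, one of them a hybrid library unlike its partner, the intervals of CCA1, LHY and RVE1 include log2 differences of both 0 and 1. Depth is unknown, so no limit can be set for the 8 members under 1 FPKM.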
